A study of Arabidopsis thaliana with 8 samples.

Results

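Of the 161 *A. thaliana* miRNAs on the arrays, 114 (70.8%) were listed at 0.01, the lowest deposited value, on all 8 arrays. These 114 miRNAs are described here by family; they were chosen by that value alone, so their values support no comparison between EBR and mock seedlings and were not tested. The arrays measured whole Col-0 seedlings, 7 days old, grown in liquid half-strength MS medium with sucrose under continuous light at 22 °C. 4 groups were compared with 2 arrays each: mock30 and mock180, which received the solvent DMSO for 30 or 180 min, and EBR30 and EBR180, which received 10 nM 24-epibrassinolide, a highly active brassinosteroid, for the same times. The design text states that independent experiments were performed at each time, and 100 ng of total RNA per sample was labelled with Cyanine 3. Whole seedlings mix all organs, so a miRNA made in few cells and a miRNA made at a low level in all cells cannot be told apart here.

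Plant miRNAs are cut from hairpin precursors by DICER-LIKE 1 and guide ARGONAUTE 1 to nearly complementary mRNAs, which are then mostly cleaved. Families differ in age. Old ones are shared by flowering plants and mostly act on transcription factors or nutrient supply, while young ones are found in *Arabidopsis* and its relatives, are often made at low levels and often have no established target. A family here is the number in the miRNA's name, and its letters mark different loci. A star, or an ending that names the 3′ or 5′ side, marks an arm of the hairpin, and a number after a point marks different small RNAs from 1 hairpin.

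The value 0.01 stood apart from all others. No value lay between it and 0.434, the next lowest in the table (miR394a in mock180 replicate 2). This gap is one between listed values and does not measure a distance in signal. For the 43 miRNAs above 0.01 on every array the median of each miRNA was 1, so the values are ratios to it, and they lay between 0.502 and 1.60, and for 4 further miRNAs 0.01 occurred on some arrays only. The sources used here do not describe how a value was set to 0.01, and they give no intensity, so 0.01 is a listed value and not a level: it does not show that a miRNA was absent, and the 114 have no order among themselves. Each array held between 114 and 117 values at 0.01. All of the variation between arrays came from the 4 miRNAs at 0.01 on some arrays.

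The 161 miRNAs belong to 114 families, which is a separate count from the 114 miRNAs at 0.01. In 76 families (66.7%) every miRNA on the array was at 0.01 on every array, and these held 101 of the 114 miRNAs. The other 13 lay in 8 families that also had members above 0.01. Of the 76 families, 53 were represented by 1 miRNA and 23 by more. Among the 23, only miR319, miR396, miR447, miR845 and miR2111 had miRNAs from more than 1 hairpin. The others had arms or numbered forms of 1 hairpin. A further 26 families were above 0.01 as a whole, and 4 were represented only by a miRNA at 0.01 on some arrays.

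**Figure D1:**
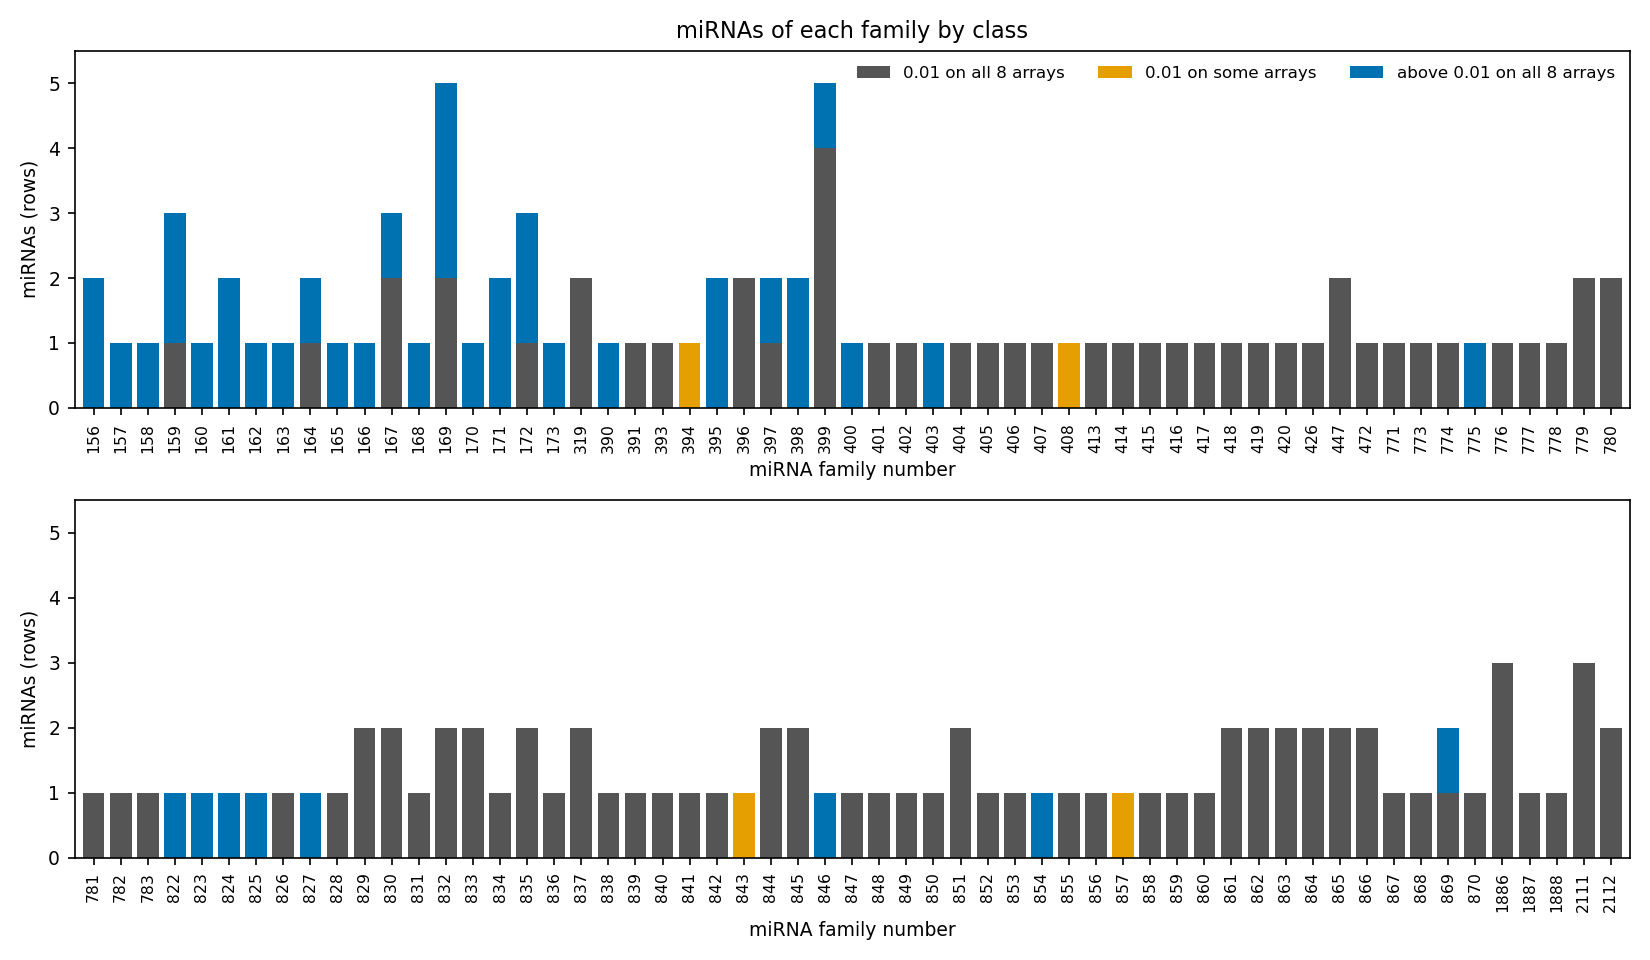
Number of miRNAs on the array (vertical axis, rows of the deposited table) in each of the 114 families (horizontal axis, family numbers in ascending order over both panels), coloured by class: 0.01 on all 8 arrays, 0.01 on some arrays, or above 0.01 on all 8 arrays. Families with members above 0.01 lie mostly among the low numbers at the left of the upper panel, while the 76 families wholly at 0.01 fill most of the rest.

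The families found across flowering plants were mostly measured above 0.01. In a list of 25 such families 3 were wholly at 0.01 (12.0%), 7 were split, 2 were represented by a miRNA at 0.01 on some arrays, and 13 were wholly above 0.01. Over all families the share wholly at 0.01 was 66.7%. A family with several miRNAs meets that class less easily, and this list held 47 miRNAs. By miRNA, 17 of the 47 were at 0.01 (36.2%), against 70.8% of all miRNAs. The list was chosen with earlier results of these data known. The 3 families wholly at 0.01 were miR319, miR393 and miR396. miR319 restrains TCP transcription factors of leaf growth, and both of its miRNAs on the array, miR319a (locus AT4G23713) and miR319c (AT2G40805), were at 0.01 on all arrays. The miR393 family, which targets the TIR1 and AFB auxin receptors, was represented by miR393a (AT2G39885). miR396a (AT2G10606) and miR396b (AT5G35407) belong to the family that targets the GROWTH-REGULATING FACTOR genes, and both were at 0.01.

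In a list of early annotations whose status as miRNAs was later questioned, all were at 0.01, against 66.7% of all families. The list was chosen with earlier results of these data known. All 13 families of this list, miR404 to miR407, miR413 to miR420 and miR426, had 1 miRNA each on the array, and each was at 0.01 on all 8 arrays.
Families from miR771 to miR870, most of them found by sequencing of *Arabidopsis* small RNAs, were at 0.01 in the large majority. Without miR827, which belongs to the conserved list, 60 families of this range were on the array and 50 of them were wholly at 0.01 (83.3%). By miRNA, 68 of 78 in this range were at 0.01 (87.2%). The families wholly above 0.01 were miR775, miR822, miR823, miR824, miR825, miR846 and miR854; miR869 was split, and miR843 and miR857 were at 0.01 on some arrays. Of the 16 families in none of these lists, 10 were wholly at 0.01 (62.5%), near the 66.7% of all families. They were miR391, miR401, miR402, miR447, miR472, miR1886, miR1887, miR1888, miR2111 and miR2112. The 6 above 0.01 were miR158, miR161, miR163, miR173, miR400 and miR403.

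**Figure D2:**
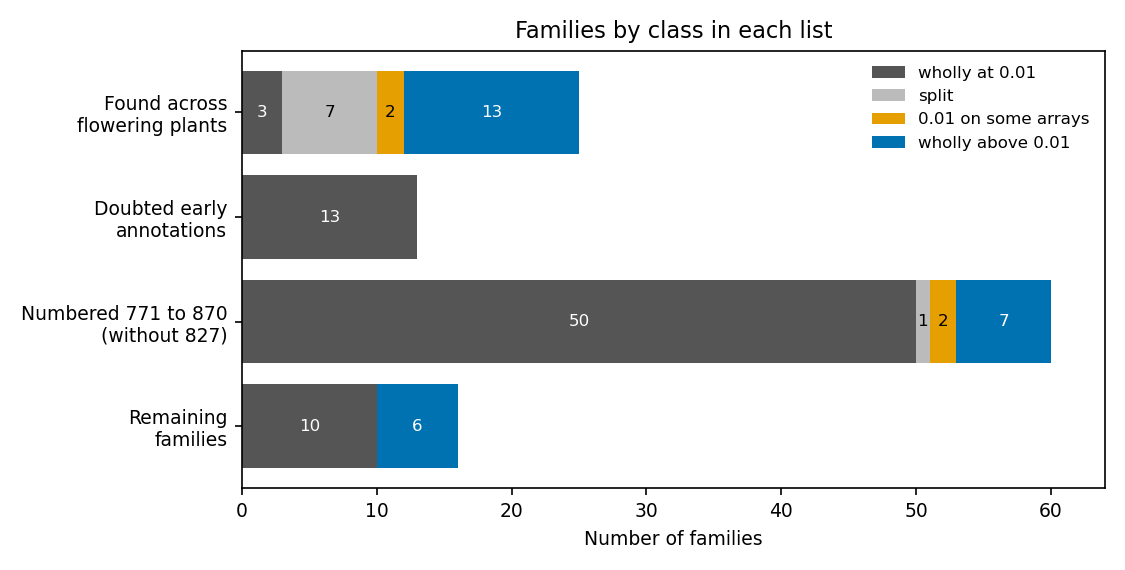
Number of families (horizontal axis) wholly at 0.01, split, at 0.01 on some arrays or wholly above 0.01 in 4 lists that together hold all 114 families; the number in each segment is its count. The conserved list has 3 of 25 families wholly at 0.01, the list of doubted early annotations 13 of 13, and the range from miR771 to miR870 without miR827 50 of 60.

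Several families with known targets were among those wholly at 0.01. miR828, which targets MYB genes of anthocyanin synthesis and triggers trans-acting siRNAs from TAS4, and miR858, which targets MYB genes of flavonol synthesis, were both at 0.01. miR773 targets the DNA methyltransferase gene MET2, miR778 the histone methyltransferase gene SUVH6, and miR402 the DNA glycosylase gene DML3; all 3 were at 0.01 on every array. The same held for miR472, which targets resistance genes of the NBS-LRR type, for miR774 and miR859, which target F-box genes, and for miR847, whose target is the auxin response repressor IAA28. miR826, which targets the glucosinolate gene AOP2, was at 0.01 as well.
The families of the silencing machinery and of trans-acting siRNA formation were mostly above 0.01. miR162, miR168 and miR403, which target DCL1, AGO1 and AGO2, were above 0.01 on all arrays. So were miR173 and miR390, which trigger trans-acting siRNAs. Thus miR828 was the only 1 of the 6 families in this list at 0.01 (16.7%, against 66.7% of all families). The list held 6 miRNAs in all. Like the silencing list, a list of 9 families linked to nutrient supply was chosen with earlier results of these data known. Among these 9, only miR778 was wholly at 0.01 (11.1%, against 66.7% of all families). A further 3 were split (miR169, miR397 and miR399), 2 were at 0.01 on some arrays (miR408 and miR857) and 3 were wholly above 0.01 (miR395, miR398 and miR827). By miRNA, 8 of the 20 in these families were at 0.01 (40.0%), against 70.8% of all miRNAs. miR2111, a phosphate-linked family that this list did not include, had 3 miRNAs on the array (miR2111a, miR2111a* and miR2111b*), all at 0.01.

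The 8 split families show where 0.01 fell within a family. miR399, which targets the ubiquitin-conjugating enzyme gene PHO2 and rises in phosphate starvation, had the most members at 0.01: miR399a, miR399d, miR399e and miR399f. Its only member above 0.01, miR399b (AT1G63005), had ratios of 0.958 and 1.05 in mock30, 0.906 and 1.04 in EBR30, 0.911 and 0.783 in mock180, and 1.28 and 1.05 in EBR180. Its highest value was on EBR180 replicate 1, as for many miRNAs of other families, such as miR159a, miR160a and miR171a. The lowest value of miR399b was on a mock180 array.
In the miR397 family, which targets laccase genes and responds to copper, miR397b (AT4G13555) was at 0.01 and miR397a (AT4G05105) was not. miR397a stood at 1.11 and 1.28 in mock30, 0.624 and 0.635 in EBR30, 0.935 and 0.892 in mock180, and 1.22 and 1.06 in EBR180. Its lowest arrays were those of EBR30. The rule that chose miR397b fixed its value at 0.01 on every array, so it gives no comparison with miR397a.
The miR169 family targets genes of NF-YA transcription factors and had miR169b (AT5G24825) and miR169g* at 0.01 beside 3 members above it. miR169a had ratios of 0.636 and 0.829 in mock30, 0.877 and 0.958 in EBR30, 1.04 and 1.06 in mock180, and 1.11 and 1.06 in EBR180. For miR169d the values were 0.506 and 0.652 in mock30, 0.950 and 0.973 in EBR30, 1.14 and 1.11 in mock180, and 1.11 and 1.03 in EBR180. miR169h was at 0.706 and 0.759 in mock30, 0.992 and 1.01 in EBR30, 1.20 and 1.13 in mock180, and 1.03 and 0.966 in EBR180. All 3 were lowest on the mock30 arrays. The same held for many miRNAs of other families, such as miR156a, miR163 and miR824, so it is not particular to miR169.

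miR159c (AT2G46255) was at 0.01, whereas the other members of its family, which targets GAMYB-like genes such as MYB33, were measured on all arrays. miR159a had ratios of 0.864 and 0.931 in mock30, 0.953 and 0.967 in EBR30, 1.03 and 1.10 in mock180, and 1.17 and 1.06 in EBR180. miR159b followed at 0.886 and 0.941 in mock30, 0.985 and 0.973 in EBR30, 1.08 and 1.02 in mock180, and 1.21 and 1.05 in EBR180. Both were lowest in mock30, as were many miRNAs of other families.
In the miR164 family, which targets NAC genes such as CUC1 and CUC2 at organ boundaries, miR164c (AT5G27807) was at 0.01. miR164a had ratios of 0.821 and 0.963 in mock30, 0.994 and 1.03 in EBR30, 1.01 and 0.981 in mock180, and 1.15 and 1.02 in EBR180. The miR167 family, which targets the auxin response factors ARF6 and ARF8, had miR167c (AT3G04765) and miR167d (AT1G31173) at 0.01. Its measured member miR167a was at 0.811 and 0.970 in mock30, 1.01 and 0.994 in EBR30, 1.07 and 1.10 in mock180, and 1.12 and 0.986 in EBR180. miR164a and miR167a both had their lowest value on mock30 replicate 1. Many miRNAs of other families, such as miR158a, miR160a and miR400, were lowest on that array too.
In the miR172 family, which targets AP2-like genes of phase change and flowering, miR172c (AT3G11435) was at 0.01. miR172e had ratios of 0.871 and 0.940 in mock30, 0.856 and 0.866 in EBR30, 1.08 and 1.06 in mock180, and 1.35 and 1.23 in EBR180. miR172b*, an arm of the hairpin that is usually discarded, was at 0.951 and 1.09 in mock30, 0.860 and 0.874 in EBR30, 1.01 and 1.03 in mock180, and 1.13 and 0.990 in EBR180. Both were lowest on the EBR30 arrays.

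**Figure D3:**
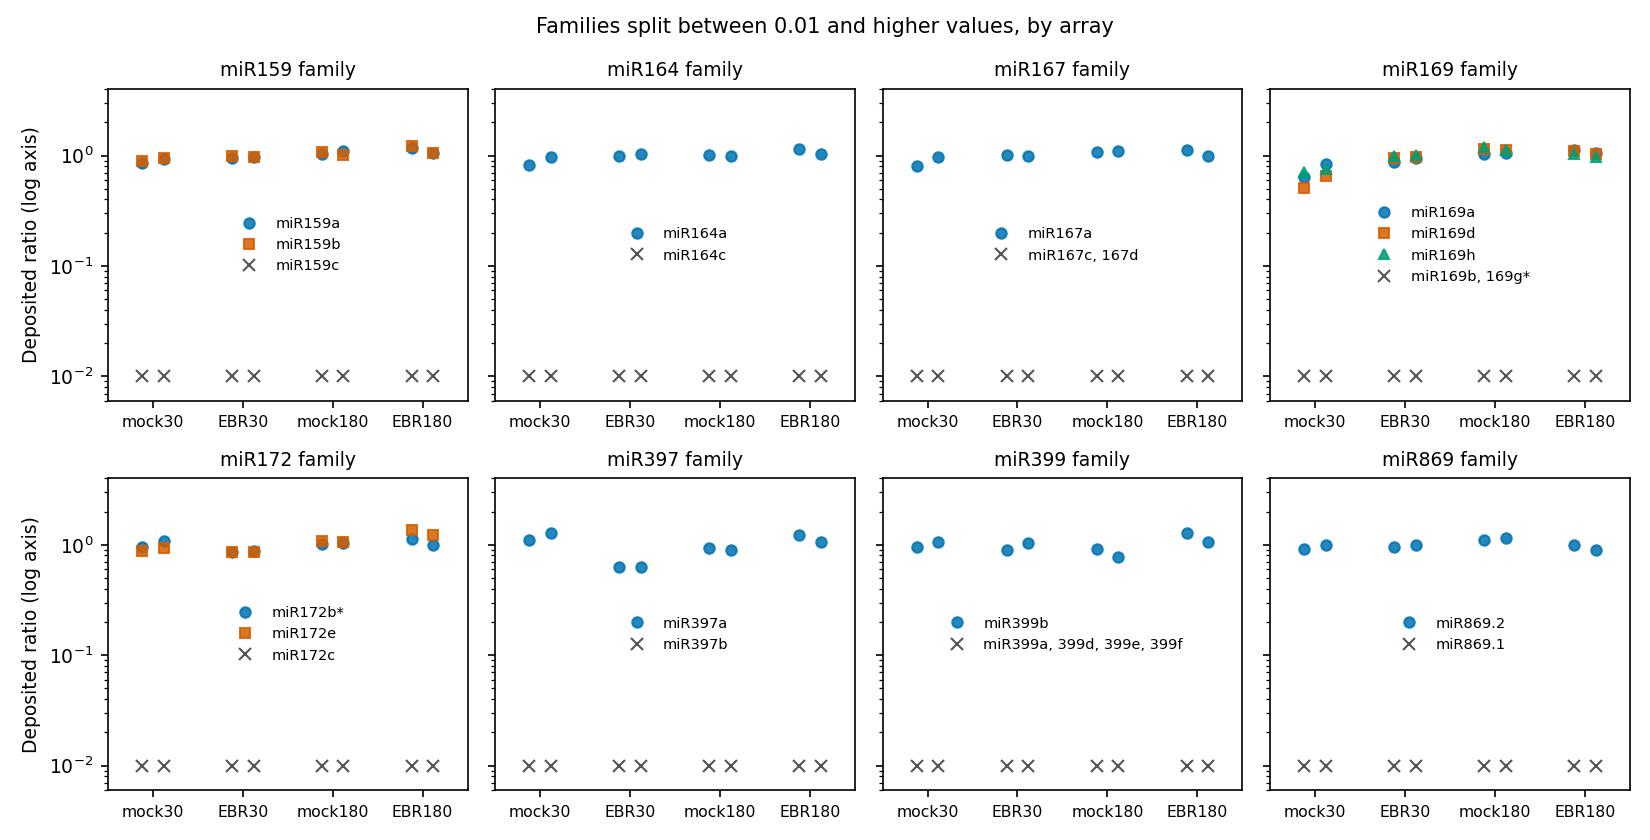
Deposited ratios (vertical axis, log scale; values relative to each miRNA's median, or the listed 0.01) of every member of the 8 split families on the 2 arrays of each group (horizontal axis; replicate 1 left, replicate 2 right). Crosses stand for members at 0.01 on all arrays and other symbols for members above it, whose values lie between 0.506 and 1.35.

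Small RNAs of 1 hairpin were nearly always on the same side, mostly at 0.01, where 70.8% of all miRNAs on the array were listed. For 15 hairpins both arms were on the array, and in all 15 both were at 0.01. No hairpin had both arms above 0.01, so the count of arms is a description only. For 6 hairpins the array held several numbered forms: miR779, miR780, miR829 and miR1886 were at 0.01 in all forms, and miR161 was above 0.01 in both. The exception was miR869 (AT5G39693), where miR869.1 was at 0.01 and miR869.2 was not. miR869.2 had ratios of 0.925 and 1.00 in mock30, 0.963 and 1.00 in EBR30, 1.11 and 1.14 in mock180, and 1.00 and 0.901 in EBR180. Of the 6 miRNAs marked with a star, 5 were at 0.01, the exception being miR172b*, against 70.8% of all miRNAs on the array. As arms and forms of 1 precursor are not separate loci, the 114 miRNAs correspond to fewer hairpins: 93 hairpins had all their small RNAs on the array at 0.01, against 41 with all above it.

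The 4 miRNAs at 0.01 on some arrays were just outside the rule. Their medians over the arrays were 0.483 for miR394a, 0.738 for miR408, 0.670 for miR843 and 0.01 for miR857, not 1, so their values are not ratios to their own medians. What they are relative to is not described, and they cannot be set against the ratios of other miRNAs. miR394a, whose target is the F-box gene LCR, was at 0.01 in mock30 replicate 1 alone and at 0.484 in replicate 2, with 0.482 and 0.471 in EBR30, 0.568 and 0.434 in mock180, and 0.531 and 0.485 in EBR180. miR843 was at 0.01 in EBR30 replicate 2 alone, with 0.646 in replicate 1, 0.645 and 0.784 in mock30, 0.694 and 0.705 in mock180, and 0.754 and 0.617 in EBR180. In both, the duplicate of the array at 0.01 gave a value within the range of the other groups.
miR408, a copper-linked miRNA that targets plantacyanin and laccase genes, was at 0.806 and 0.717 in mock30, at 0.01 on both EBR30 arrays, at 0.759 and 0.01 in mock180, and at 1.07 and 0.835 in EBR180. miR857, which targets the laccase gene LAC7, was at 0.632 and 0.666 in mock30, at 0.01 on both EBR30 and both mock180 arrays, and at 0.784 and 0.01 in EBR180. Both were thus at 0.01 on the EBR30 arrays and above it on the mock30 arrays. With the duplicates of mock180 (miR408) and of EBR180 (miR857) on different sides of 0.01, no difference between EBR and mock was tested, and no fold change is given against a listed 0.01. Counted by group, 114 miRNAs were at 0.01 on both arrays of mock30, 116 in EBR30, 115 in mock180 and 114 in EBR180.

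**Figure D4:**
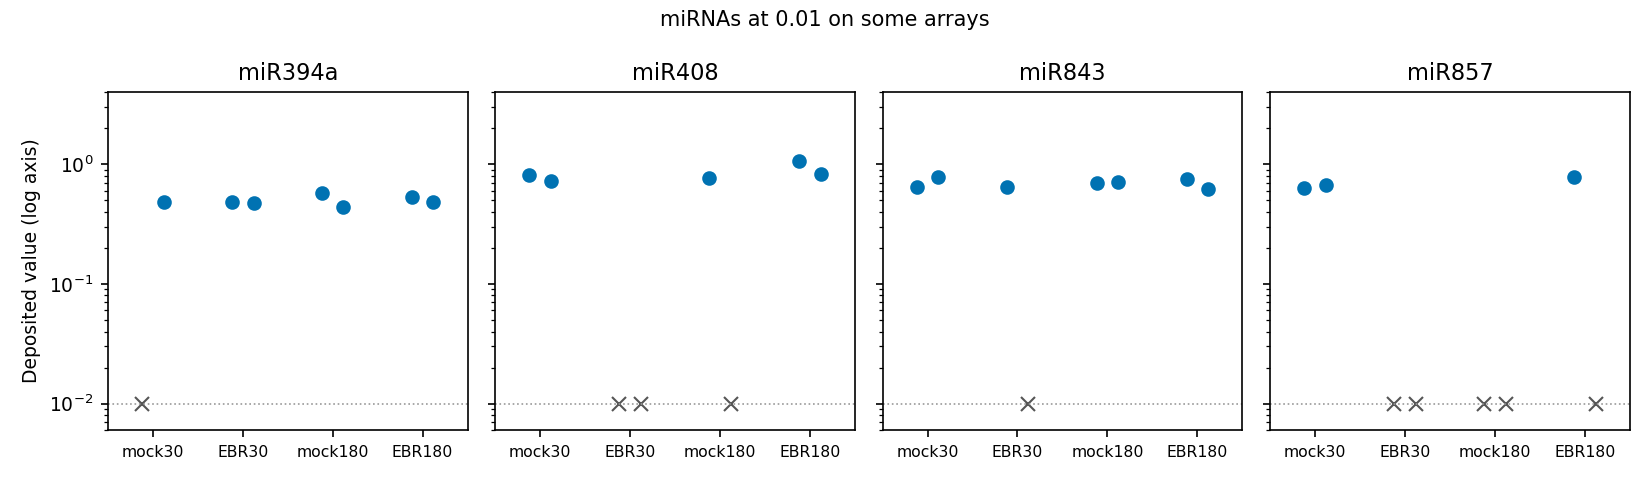
Deposited values (vertical axis, log scale, reference not described) of miR394a, miR408, miR843 and miR857 on the 2 arrays of each group (horizontal axis; replicate 1 left, replicate 2 right); crosses and the dotted line mark 0.01. miR408 and miR857 are at 0.01 on both EBR30 arrays, whereas miR394a and miR843 are at 0.01 on 1 array each.

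The genes of the miRNAs were compared in the RefSeq gene table of assembly TAIR10.1, a measure that the choice of members did not use. Of the 76 families wholly at 0.01, 60 had 1 annotated miRNA gene, 15 had more and miR783 had none. Of the 26 families wholly above 0.01, 13 had 1 gene and 13 had more. Of the 93 hairpins at 0.01, 86 could be matched to 1 gene, and 18 of these (20.9%) lay wholly inside a protein-coding gene. Among the 41 hairpins above 0.01, all matched, this was so for 4 (9.76%): MIR397a, MIR398b, MIR400 and MIR822. Counting any overlap, the shares were 25.6% and 17.1%. These are descriptions of annotated spans, which carry no strand or exon information here; families share ancestry, and the difference was not tested.
Named hosts of hairpins at 0.01 were DCL1 for MIR838, so that miR838 lies within the gene of the enzyme that cuts miRNA precursors, PKL, a chromatin remodeller gene, for MIR862, the ferrochelatase gene FC1 for MIR860, the nitrate transporter gene NRT1.9 for MIR837, SPPL4 for MIR2112 and AtVEX1 for MIR420. These hosts are all those with a symbol of their own in the table.

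Some miRNA genes on the array are neighbours in the genome. The table held 8 pairs of measured hairpins that follow each other in the annotated gene order. In 5 pairs both were at 0.01: MIR399d with MIR399e, MIR399e with MIR399f, MIR771 with MIR851, MIR850 with MIR863, and MIR867 with MIR1887. The miR399 pairs share MIR399e, and most hairpins on the array (93 of 139) were at 0.01, so these counts are a description only. MIR395a and MIR395b were both above 0.01. MIR397b, at 0.01, neighbours MIR857, whose miRNA was above 0.01 on 3 arrays. The pair MIR842 and MIR846, both of which yield miRNAs against jacalin lectin genes, was divided: miR842 was at 0.01 on all arrays, while miR846 had ratios of 0.746 and 0.834 in mock30, 1.53 and 1.60 in EBR30, 1.01 and 1.53 in mock180, and 0.994 and 0.886 in EBR180. On the EBR30 arrays miR846 was above both mock30 arrays, as were many miRNAs of other families, such as miR156a, miR160a and miR163. The rule that chose miR842 fixed its value at 0.01 on every array, so it gives no comparison with miR846.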

How the data were processed

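Values for 8 single-colour arrays were read from the table deposited by the authors, which holds 1 linear value per miRNA and array. For the miRNAs above 0.01 on every array the deposited values are ratios to the median of that miRNA; for the 4 at 0.01 on some arrays the medians were not 1 and the scale is unknown. The submitters' processing notes name Agilent Feature Extraction 9.1, and the paper's methods name GeneSpring, where values were set against the median over samples. How background was corrected, how arrays were scaled and how 0.01 arose are not given in the sources used here. Signal over background and depth are therefore unknown, and the number of arrays limits the precision.

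Each miRNA was classed by whether its value equals 0.01 on all, some or none of the arrays, and families were formed from the number in the name (Python 3.11.15, pandas 2.3.3). The classification was tested on simulated data. No test was made, since the members have the same value on every array. Members, family lists and the rule for naming miRNAs (those at 0.01 on some arrays, and members of split families above 0.01) were chosen with earlier results of these data known; other names, the loci and the neighbours were chosen after the values were seen. Names were matched to RefSeq genes of TAIR10.1, which succeeded for 132 of 139 hairpins; MIR774, MIR781, MIR783, MIR833, MIR841, MIR858 and MIR1888 had no single match. Coordinates are not printed because the deposited table names no build. Mature sequences were not used here, so the planned comparison of GC content was not made.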

Additional observations from a re-analysis of the deposited data

How the results depend on the processing

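The number of miRNAs at 0.01 on every array, 114, and the numbers of families wholly at 0.01 and split, 76 and 8, were the same with a limit of 0.02 or 0.1, with 7 of 8 arrays required, and without each array in turn (114, 76 and 8 each time). These settings could not change the counts. No value lay between 0.01 and 0.434, and no miRNA partly at 0.01 had that value on more than 5 arrays. Requiring 0.01 on at least 1 array gave 118, 80 and 8. Taking each group alone gave 114 to 116 miRNAs. Joining related families left 75 wholly at 0.01, because miR319 then joined the split miR159 family. Added after the data were seen, leaving out starred miRNAs gave 109 miRNAs, and counting hairpins gave 93 with 7 families split. Distinct mature sequences, families by shared bases and GC content were not run, as no sequences were used here. No paired analysis was possible because the results come from no test. A limit of all these counts is that the signal behind 0.01 is not known.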

Other observations

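The array rows do not cover every annotated gene of their families. The families measured have 200 miRNA genes in the RefSeq table, against 139 hairpins named on the array. The miR169 family has 14 genes and 5 miRNAs in the deposited table, and the miR319, miR405 and miR447 families, all at 0.01, have 3 genes each but 2, 1 and 2 miRNAs. Whether a miRNA on the array also stands for other loci with the same mature sequence was not tested.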
